A study of Mus musculus with 6 samples.

Results

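The collagen genes of the mouse were described in right atrial (RA) myocardium after volume overload (VO). The family was taken as every protein-coding gene of the table whose symbol is Col, a number, the letter a and a further number, which gave 44 of the 54093 genes listed. By class these were 11 fibrillar collagens, 6 basement membrane collagens, 6 beaded filament collagens, 9 fibril-associated collagens and 12 others. The RNA came from the RA free wall of wild-type (WT) C57BL/6 mice at postnatal day 21 (P21). In the 3 VO libraries the mice had received a fistula between the abdominal aorta and the inferior vena cava at P7, which returns arterial blood to the right heart, and in the 3 sham libraries a sham operation at the same age. Pups of either sex entered both groups. The sources used here do not say whether each library is 1 animal, so the p-values measure the spread between these libraries, which may in part be technical.

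Collagens are extracellular proteins built from chains that wind around each other into a triple helix. Fibrillar collagens form the banded fibrils that carry tension in the heart wall, type IV collagens form the sheet under endothelium and around each muscle cell, and type VI collagens form beaded filaments beside it. Fibril-associated collagens sit on the surface of fibrils, and the remaining members form other networks, span the cell membrane or carry heparan sulfate chains. In the heart, fibroblasts are the main source of fibrillar collagen, and endothelial and mural cells make much of the basement membrane.

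Each library held between 15963082 and 17237903 fragments on genes. Levels are in FPKM, fragments per kilobase of gene model scaled by a library size set by the authors. Tests were run with limma on log2(FPKM + 0.1) over the 12627 genes whose mean over the 6 libraries was 1 FPKM or more, and p-values were adjusted by the Benjamini-Hochberg method over all of them. The atrial myosin light chain gene Myl7 was read at 2586 FPKM or more in every library, whereas the ventricular light chain gene Myl2 did not pass 60.4 FPKM. VO 1 and VO 3 stood apart in markers of other cells. The summed FPKM of 8 leukocyte markers was 575 in VO 1 and 132 to 202 in the other 5 libraries. The brown fat gene Ucp1 was read at 254 FPKM in VO 3 and at 0 in the other 5 libraries.

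Collagen transcripts took up 0.557%, 0.778% and 0.674% of the fragments in sham 1, sham 2 and sham 3, and 1.24%, 0.771% and 1.02% in VO 1, VO 2 and VO 3. VO 1 and VO 3 lay above all sham libraries, while VO 2 lay within the sham range. In these bulk samples, more collagen-making cells, more collagen RNA in each such cell and less RNA from other cells cannot be told apart. Of the 44 genes, 22 had a mean of at least 1 FPKM and were tested. The others were read at lower levels, 12 of them with a mean between 0.1 and 1 FPKM and 10 below 0.1 FPKM.

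Of the 22 tested collagen genes, 21 were higher in VO and 1, Col8a1, was lower, where 48.5% of all tested genes were higher. The median log2 fold change of the 22 was 0.36, against -0.01 over all tested genes. An unadjusted p-value under 0.05 was found for 10 collagen genes, which were all higher in VO, where 3.89% of all tested genes were higher and 8.08% were lower at that level. In 9 collagen genes every VO library was above every sham library, a pattern seen in 8.25% of all tested genes. None of the 22 had an adjusted p under 0.05, since their limma adjusted p ran from 0.404 to 0.947, and 0 of the 22 did with voom, limma's test on the recovered fragments. Over all genes a single gene, Nppb, which was lower in VO, passed adjustment, which is 0.00792% of those tested.

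The count at an unadjusted p-value under 0.05 moved when a library was left out, in fits that also hold fewer libraries. It was 0 without sham 1, 1 without sham 3, 3 without VO 1 and 3 without VO 3. Leaving out sham 2 gave 11 such genes, and leaving out VO 2 gave 12. The share of all tested genes that were higher in VO at that level moved as well, to 2.23% without sham 1, 2.68% without sham 2, 2.48% without sham 3, 2.51% without VO 1, 6.21% without VO 2 and 3.94% without VO 3. The number higher in VO stayed between 20 and 22 of 22 in these 6 fits, and the median log2 fold change between 0.27 and 0.45. With TPM, the median of all tested genes moved to 0.13 and that of the collagen genes to 0.50. TPM rescales all genes of a library by a common factor, so the distance between both medians, 0.37 with either scaling, could hardly change. With TPM, 1085 genes in all were higher and 486 lower at an unadjusted p-value under 0.05. The split thus turned from 491 higher and 1020 lower, and 14 collagen genes then had such a p-value. The plot of differences with their confidence intervals shows all 22 genes.

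**Figure D1:**
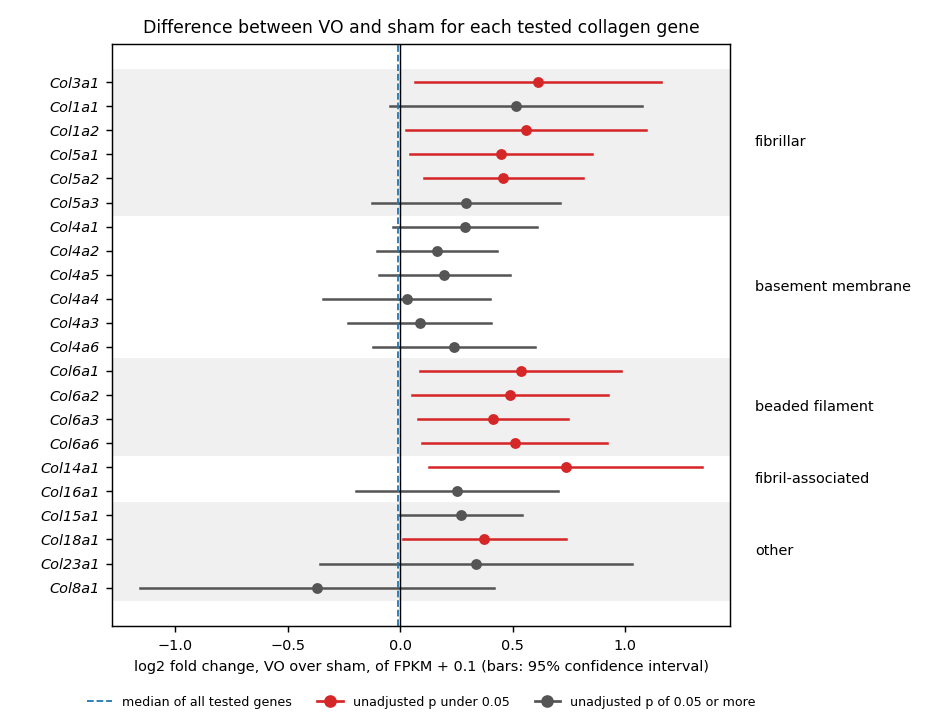
Log2 fold change of VO over sham on FPKM + 0.1 for the 22 tested collagen genes, grouped by class, with 95% confidence intervals from limma. Points in red are the 10 genes with an unadjusted p-value under 0.05. The dashed line is the median of all tested genes at -0.01, and 21 of the 22 points lie to the right of 0.

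Fibrillar collagens were the most abundant class. The summed FPKM of the 11 genes was 473 ± 79.7 in sham and 707 ± 173 in VO (SD, n = 3 libraries each), 1.49 times the sham mean. All 6 tested members were higher in VO, 4 of them with an unadjusted p-value under 0.05, with log2 fold changes between 0.29 and 0.61. They encode the chains of collagens I, III and V.

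Col3a1 (ENSMUSG00000026043, chr1:45311538-45349706), which encodes the single chain of collagen III, the collagen of thin and extensible fibrils, was the highest of all 44 genes. It was read at 208, 275 and 246 FPKM in sham 1 to sham 3 and at 475, 267 and 395 FPKM in VO 1 to VO 3. VO 1 and VO 3 were above all sham libraries, whereas VO 2 lay below sham 2. The log2 fold change was 0.61 (standard error, SE, 0.23, adjusted p = 0.41).

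The bases before the start of Col3a1 are shown with those before Col5a1, because these fibrillar genes differed in VO by similar amounts and their upstream stretches are unlike in composition. Both are the 250 bases before the RefSeq start in GRCm38.p6, on the plus strand, at chr1:45311288-45311537 and chr2:27886175-27886424. Capitals mark TATAAA and GGGCGG, the core of a TATA box and of a GC box, searched on both strands, so that CCGCCC is the latter on the other strand.
Col3a1: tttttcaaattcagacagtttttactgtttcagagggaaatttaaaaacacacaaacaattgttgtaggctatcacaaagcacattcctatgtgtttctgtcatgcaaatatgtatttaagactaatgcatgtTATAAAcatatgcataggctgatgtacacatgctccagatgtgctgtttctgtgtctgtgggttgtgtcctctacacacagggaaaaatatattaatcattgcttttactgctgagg
Col5a1: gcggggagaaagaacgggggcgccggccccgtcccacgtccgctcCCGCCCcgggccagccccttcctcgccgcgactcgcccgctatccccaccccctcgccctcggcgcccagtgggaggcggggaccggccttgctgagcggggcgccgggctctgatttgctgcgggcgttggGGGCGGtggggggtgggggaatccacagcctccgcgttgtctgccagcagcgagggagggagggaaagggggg
The Col3a1 stretch is 35.2% G or C and holds TATAAA once and GGGCGG in no place. The Col5a1 stretch is 76.4% G or C and holds GGGCGG in 2 places. Such a stretch was at hand for 35 of the 44 collagen genes, 18 of them tested. Among these 18, GGGCGG was present in 12 and TATAAA in 1, that of Col3a1. Among 32807 stretches of the same length before genes of the whole genome, 32.7% held GGGCGG and 12.4% held TATAAA. The median share of G or C was 62.0% in the 18 and 52.4% in all. These matches describe the letters of the window only.

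Col1a1 (ENSMUSG00000001506, chr11:94936224-94953042) and Col1a2 (ENSMUSG00000029661, chr6:4504814-4541544) encode the α1 and α2 chains of collagen I, the main collagen of thick fibrils. Col1a1 was at 90.3, 150.3 and 121 FPKM in the sham libraries and at 195, 129 and 191 FPKM in VO. Sham 2 was thus above VO 2, and the log2 fold change of 0.51 (SE 0.24) had an adjusted p of 0.423. Col1a2 was at 48.2, 69.9 and 60.7 FPKM in sham and at 108, 64.1 and 94.7 FPKM in VO, and its log2 fold change was 0.56 (SE 0.23, adjusted p = 0.411).

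The ratio of Col1a2 to Col1a1 within a library was 0.53, 0.46 and 0.50 in sham and 0.55, 0.50 and 0.50 in VO. Its log2 mean differed by 0.04 between the groups (exact permutation test, two-sided, p = 0.7, n = 3 and 3), where the smallest p that 3 against 3 allows is 0.1. The FPKM of Col1a2 is per kilobase of a gene model of 12426 bases, which is longer than its principal transcript of 5348 bases. Per kilobase of principal transcript the ratio was 0.976 to 1.16 over the 6 libraries. The ratio of Col3a1 to Col1a1 was 2.31, 1.83 and 2.03 in sham and 2.44, 2.07 and 2.07 in VO, a log2 difference of 0.10 with overlapping groups (exact permutation test, two-sided, p = 0.4, n = 3 and 3).

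Collagen V is a minor chain set inside collagen I fibrils that limits their width. Col5a1 was at 19.6, 25.0 and 23.5 FPKM in sham and at 37.2, 25.0 and 31.5 FPKM in VO, and VO 2 was just below sham 2. Col5a2 (ENSMUSG00000026042, chr1:45374321-45503282), which lies 24614 bases from Col3a1 and runs towards it, was at 17.2, 21.1 and 21.01 FPKM in sham and at 32.0, 23.5 and 26.4 FPKM in VO. It was the only tested fibrillar gene with all VO libraries above all sham libraries. The log2 fold changes were 0.45 for Col5a1 (SE 0.17, adjusted p = 0.41) and 0.46 for Col5a2 (SE 0.15, adjusted p = 0.404).
Col5a3, a chain with a narrower tissue range, was at 5.19, 6.30 and 5.41 FPKM in sham and at 6.00, 6.11 and 8.94 FPKM in VO. VO 3 alone was above the sham range, and the log2 fold change of 0.29 had an adjusted p of 0.486.

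**Figure D2:**
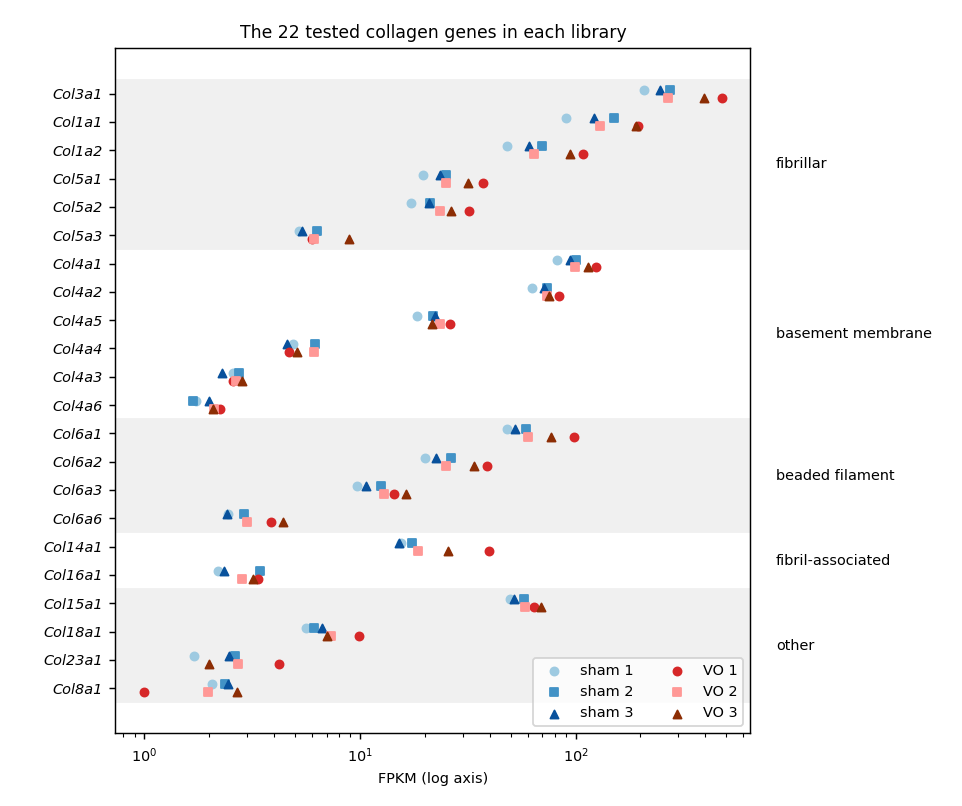
FPKM of the 22 tested collagen genes on a log axis, grouped by class and ordered by mean level, with a symbol for each of the 3 sham libraries (blue) and the 3 VO libraries (red and brown). VO 2, in pale red, lies within the sham range in 10 genes, and sham 1, in pale blue, is the lowest library in 16.

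The other 5 fibrillar genes were under the level set for testing. Col27a1 was at 0.612, 0.944 and 0.910 FPKM in sham and at 1.07, 0.933 and 0.794 FPKM in VO. Col24a1 ran from 0.069 to 0.169 FPKM in sham and from 0.144 to 0.427 FPKM in VO, where VO 1 was the highest. The cartilage chain Col11a2 ran from 0.198 to 0.333 FPKM in sham and from 0.134 to 0.420 FPKM in VO. Col11a1 did not pass 0.091 FPKM. Col2a1, the main chain of cartilage, had 0 fragments in the 3 sham libraries and 12, 2 and 0 fragments in VO 1 to VO 3.

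Basement membrane collagens were the second most abundant class and showed smaller differences. The summed FPKM of the 6 type IV genes was 192 ± 17.1 in sham and 224 ± 18.1 in VO (SD, n = 3 libraries each), 1.17 times the sham mean. All 6 were tested and higher in VO, with log2 fold changes from 0.03 to 0.29, but 0 of the 6 had an unadjusted p-value under 0.05 by limma on FPKM or by voom. In 2 of the 6, Col4a2 and Col4a6, the VO libraries were all above the sham libraries, a pattern seen in 8.25% of all tested genes.

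Type IV genes lie in head-to-head pairs. Col4a1 (ENSMUSG00000031502, chr8:11198423-11312826) and Col4a2 (ENSMUSG00000031503, chr8:11312805-11449287), which encode the common basement membrane trimer, run away from each other and their first exons overlap by 22 bases. Col4a4 and Col4a3 run away from each other with 71 bases between their starts, and 1308 bases lie between Col4a6 and Col4a5. The shared bases of the first pair and the spacer of the next are shown because each pair's genes start from a common stretch. They are on the plus strand in GRCm38.p6, from RefSeq, at chr8:11312805-11312826 and chr1:82586850-82586920, with no letters marked.
Col4a1 and Col4a2: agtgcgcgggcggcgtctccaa
Col4a4 and Col4a3: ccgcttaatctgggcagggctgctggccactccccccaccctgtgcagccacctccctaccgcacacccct
They are 72.7% and 69.0% G or C.

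Col4a1 was at 82.4, 100.3 and 94.2 FPKM in sham and at 124, 99.3 and 115 FPKM in VO, with VO 2 just below sham 2. Col4a2 was at 63.1, 73.7 and 71.4 FPKM in sham and at 83.3, 73.9 and 75.7 FPKM in VO, where VO 2 exceeded sham 2 by less than 1 FPKM. The log2 fold changes were 0.29 for Col4a1 (SE 0.13, adjusted p = 0.423) and 0.16 for Col4a2 (SE 0.11, adjusted p = 0.524). Within a library the ratio of Col4a2 to Col4a1 was 0.77, 0.73 and 0.76 in sham and 0.67, 0.74 and 0.66 in VO. VO 1 and VO 3 were below all sham libraries in this ratio and VO 2 was not, and the log2 difference was -0.12 (exact permutation test, two-sided, p = 0.2, n = 3 and 3).

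Col4a3, Col4a4 and Col4a5 encode the trimer known best from the glomerulus of the kidney. Col4a5 (ENSMUSG00000031274, chrX:141475385-141689234) was at 18.4, 21.8 and 22.2 FPKM in sham and at 26.3, 23.5 and 21.7 FPKM in VO, and the groups overlapped. Its neighbour Col4a6 was read at a lower level, at 1.74, 1.68 and 1.99 FPKM in sham and 2.25, 2.10 and 2.07 FPKM in VO. The log2 fold changes were 0.20 for Col4a5 and 0.24 for Col4a6. Col4a4 was at 4.89, 6.17 and 4.58 FPKM in sham and at 4.69, 6.12 and 5.12 FPKM in VO. Col4a3 was at 2.57, 2.75 and 2.28 FPKM in sham and at 2.57, 2.66 and 2.83 FPKM in VO. For this pair the differences were within the spread between libraries, with log2 fold changes of 0.03 (95% confidence interval -0.34 to 0.40) and 0.09 (95% confidence interval -0.23 to 0.40). The sign for Col4a4 changed when sham 1, sham 3 or VO 2 was left out, to between -0.08 and -0.01.

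The tested beaded filament collagens were all higher in VO by similar amounts. The summed FPKM of the 6 type VI genes was 89.7 ± 10.4 in sham and 129 ± 27.1 in VO (SD, n = 3 libraries each), 1.44 times the sham mean. All 4 tested members had a higher level in VO with an unadjusted limma p-value under 0.05, as did 3.89% of all tested genes. The log2 fold changes of the 4 lay between 0.41 and 0.53. In 3 of the 4, Col6a1, Col6a3 and Col6a6, all VO libraries were above all sham libraries, a pattern seen in 8.25% of all tested genes.

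Col6a1 (ENSMUSG00000001119, chr10:76708792-76726168) and Col6a2 (ENSMUSG00000020241, chr10:76595762-76623630) lie on the same strand, 85161 bases apart, and their chains join that of Col6a3 in the classic collagen VI trimer. Col6a1 was at 47.9, 59.0 and 52.6 FPKM in sham and at 97.9, 60.3 and 76.5 FPKM in VO, and its log2 fold change was 0.53 (SE 0.19, adjusted p = 0.406). Col6a2 was at 20.1, 26.4 and 22.6 FPKM in sham and at 38.9, 25.1 and 33.7 FPKM in VO, with VO 2 below sham 2 and a log2 fold change of 0.49. Col6a3 was at 9.64, 12.5 and 10.7 FPKM in sham and at 14.4, 12.9 and 16.4 FPKM in VO, and its log2 fold change was 0.41. In each of these 3 genes VO 2 was the lowest VO library and sham 2 the highest sham library.

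Col6a6, Col6a5 and Col6a4 follow each other on the same strand of chromosome 9 and encode chains that can take the place of that of Col6a3. Col6a6 (ENSMUSG00000043719, chr9:105687809-105828160) was at 2.43, 2.91 and 2.43 FPKM in sham and at 3.88, 2.98 and 4.40 FPKM in VO, and its log2 fold change was 0.51 (SE 0.17, adjusted p = 0.406). Col6a5, 27917 bases further on, was below the level for testing, at 0.055, 0.062 and 0.052 FPKM in sham and 0.404, 0.052 and 0.439 FPKM in VO. These values stood on 8, 10 and 8 fragments in sham and on 69, 8 and 68 fragments in VO, so that VO 1 and VO 3 were high and VO 2 was level with sham. Col6a4 had 0 fragments in the sham libraries and 2, 2 and 0 in VO.

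Fibril-associated collagens were the least abundant class. Their summed FPKM was 19.9 ± 1.80 in sham and 32.6 ± 10.96 in VO (SD, n = 3 libraries each), 1.64 times the sham mean. Most of it came from Col14a1 (ENSMUSG00000022371, chr15:55307750-55520803), a chain that coats collagen I fibrils. Col14a1 was at 15.4, 17.4 and 15.2 FPKM in sham and at 39.7, 18.7 and 25.6 FPKM in VO, so all VO libraries were above all sham libraries and VO 1 was far above the rest. Its log2 fold change of 0.73 (SE 0.26, adjusted p = 0.406) was the largest among the 22 tested collagen genes in this fit. With single libraries left out or other settings it lay between 0.45 and 0.99. Among the same 22 genes, Col14a1 was not the largest without VO 1, where Col6a6 had 0.48 against 0.45, or with quantile normalization, where Col3a1 had 0.89 against 0.84. Fits with a lower or no filter hold further collagen genes, which were not ranked here.

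Col16a1, which is found near small fibrils and basement membranes, was at 2.20, 3.43 and 2.35 FPKM in sham and at 3.36, 2.84 and 3.20 FPKM in VO. Sham 2 was the highest library, and the log2 fold change of 0.25 had an adjusted p of 0.555. Among the 7 members below the level for testing, Col12a1 ran from 0.419 to 0.549 FPKM in sham and from 0.524 to 0.702 FPKM in VO. Col20a1 ran from 0.200 to 0.508 FPKM in sham and from 0.161 to 0.716 FPKM in VO, and the gene 9230112E08Rik overlaps it on the same strand. Col9a3 ran from 0.045 to 0.335 FPKM in sham and from 0.096 to 0.284 FPKM in VO, and Col9a2 from 0.038 to 0.159 FPKM in sham and from 0.079 to 0.321 FPKM in VO. Col22a1, Col9a1 and Col19a1 had at most 9, 4 and 1 fragments in any library.

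The 12 other collagens held 4 tested genes. Their summed FPKM was 66.6 ± 4.63 in sham and 79.7 ± 5.49 in VO (SD, n = 3 libraries each), 1.20 times the sham mean. Col15a1 (ENSMUSG00000028339, chr4:47208161-47313167) and Col18a1 (ENSMUSG00000001435, chr10:77052178-77166548) encode the multiplexins, heparan or chondroitin sulfate collagens that border basement membranes and whose ends give restin and endostatin. Col15a1 was at 49.7, 57.5 and 52.0 FPKM in sham and at 64.3, 58.5 and 69.2 FPKM in VO, and its log2 fold change was 0.27 (SE 0.11, adjusted p = 0.414). Col18a1 was at 5.64, 6.14 and 6.66 FPKM in sham and at 9.87, 7.32 and 7.01 FPKM in VO, and its log2 fold change was 0.37 (SE 0.15, adjusted p = 0.414). In both multiplexin genes every VO library was above every sham library, a pattern seen in 8.25% of all tested genes.

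The transmembrane collagen gene Col23a1 was at 1.70, 2.63 and 2.47 FPKM in sham and at 4.22, 2.73 and 1.99 FPKM in VO. VO 1 was high, VO 3 lay within the sham range, and the log2 fold change of 0.34 had a 95% confidence interval from -0.36 to 1.03. Col8a1 (ENSMUSG00000068196, chr16:57624258-57754737), which encodes a short chain collagen of vessel walls and endothelial sheets, was the only tested member with a lower mean in VO. It was at 2.07, 2.37 and 2.44 FPKM in sham and at 0.999, 1.97 and 2.69 FPKM in VO, so that VO 1 was the lowest of all libraries and VO 3 the highest. The log2 fold change of -0.37 (SE 0.33, adjusted p = 0.611) was 0.0074 without VO 1.

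Of the other 8, Col28a1 ran from 0.722 to 1.19 FPKM in sham and from 0.930 to 1.13 FPKM in VO. The transmembrane genes Col13a1 and Col25a1 ran from 0.656 to 0.960 and from 0.357 to 0.640 FPKM in sham, and from 0.527 to 0.906 and from 0.341 to 0.488 FPKM in VO. Col8a2, the partner of Col8a1, ran from 0.243 to 0.670 FPKM in sham and from 0.219 to 0.474 FPKM in VO. Col26a1, Col17a1, Col7a1 and Col10a1 had means below 0.1 FPKM and at most 21 fragments in any library. Among all 22 members under the level for testing, 13 had a higher mean in VO, and the groups overlapped in every case.

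The order of the libraries recurred across the tested members. VO 1 was the highest of the 6 libraries in 14 of 22 genes and VO 3 in 6. Sham 1 was the lowest of the 6 in 16 genes, and sham 2 was the highest sham library in 18. VO 2 was the lowest VO library in 14 genes and lay within the sham range in 10. Against the sham mean, the median log2 difference of the 22 genes was 0.50 in VO 1, 0.15 in VO 2 and 0.40 in VO 3, and 20, 21 and 20 of the 22 genes were above the sham mean. For all tested genes the same medians were -0.04, -0.01 and -0.01, and 46.4%, 47.9% and 48.2% of them were above the sham mean.

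**Figure D3:**
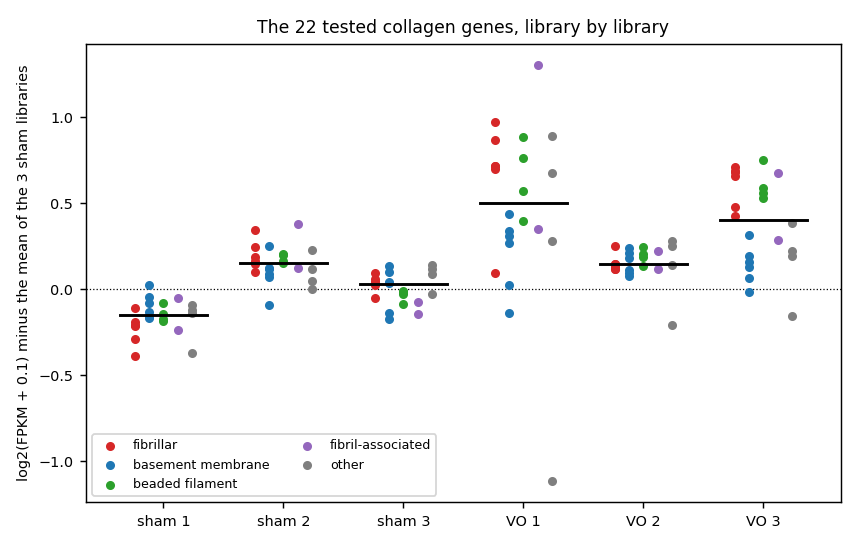
Log2(FPKM + 0.1) of each of the 22 tested collagen genes minus its mean over the 3 sham libraries, by library, with points coloured by class and a bar at the median of the 22. The medians are 0.50 in VO 1, 0.15 in VO 2 and 0.40 in VO 3, and the basement membrane genes (blue) lie below the fibrillar and beaded filament genes in VO 1 and VO 3 with few exceptions.

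Fibrillar genes held 53.9%, 57.8% and 56.4% of the summed collagen FPKM in the sham libraries and 61.9%, 56.0% and 61.6% in VO. Basement membrane genes held 23.9%, 21.7% and 23.1% in sham and 17.6%, 22.5% and 18.3% in VO. VO 1 and VO 3 were above all sham libraries in the fibrillar share and below all in the basement membrane share, while VO 2 lay within the sham range of both. The share of beaded filament genes moved little, between 10.4% and 11.3% over all 6 libraries.

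**Figure D4:**
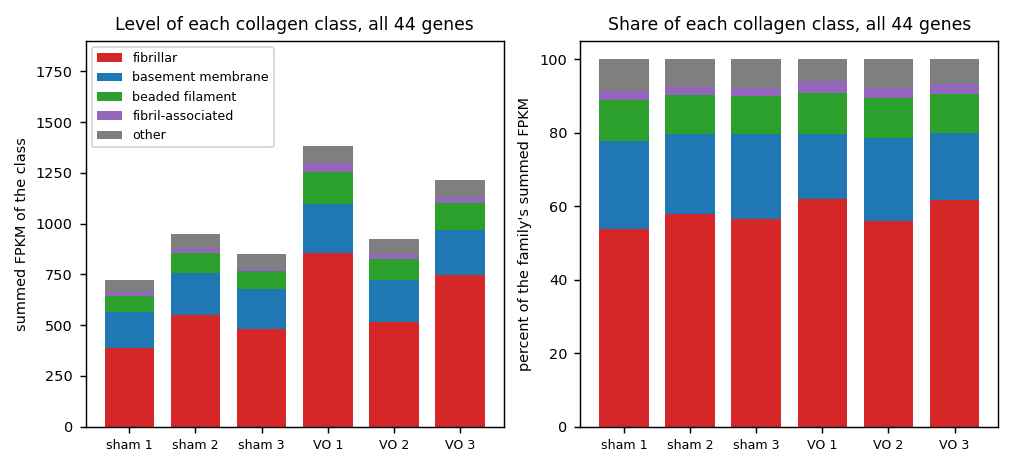
Summed FPKM of each collagen class over all 44 genes (left) and the percent of the family's summed FPKM that each class holds (right), by library. The family sums to 724, 949 and 850 FPKM in sham 1 to sham 3 and to 1380, 922 and 1216 FPKM in VO 1 to VO 3, and the fibrillar share is above 61% in VO 1 and VO 3 only.

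Genes of collagen biosynthesis were split in direction. A list of 23 genes for hydroxylation, folding and export in the endoplasmic reticulum had 12 higher and 11 lower in VO and a median log2 fold change of 0.03. Every VO library was above every sham library in 1 of the 23, Mia2, where 8.25% of all tested genes were. All VO libraries were below all sham libraries in 5, P4ha2, P4hb, P3h4, Plod1 and Fkbp14. The share of all tested genes below in this way was not computed, so these 5 cannot be set against it. At an unadjusted p-value under 0.05, 1 of the 23 was higher and 2 were lower, where 3.89% and 8.08% of all tested genes were. Mia2, whose product helps load bulky cargo such as procollagen for export, was at 4.91, 5.23 and 5.07 FPKM in sham and at 6.43, 5.82 and 6.26 FPKM in VO. P3h4, part of a complex for lysine hydroxylation of collagen, was at 28.3, 25.7 and 22.9 FPKM in sham and at 15.5, 21.7 and 19.4 FPKM in VO. Fkbp14, a prolyl isomerase for procollagen folding, was at 9.45, 9.65 and 8.14 FPKM in sham and at 6.91, 7.92 and 7.47 FPKM in VO. The groups did not overlap in any of these 3 genes, with log2 fold changes of 0.28, -0.45 and -0.28 and limma adjusted p of 0.406, 0.406 and 0.411.

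Of 10 genes for cutting propeptides 5 were tested, 2 of them higher and 3 lower in VO. Adamts2, the main protease for the amino ends of fibrillar procollagens, was at 14.5, 21.4 and 19.1 FPKM in sham and at 33.2, 22.3 and 23.0 FPKM in VO, and its log2 fold change was 0.51 (SE 0.20, adjusted p = 0.411). Pcolce2, an enhancer of cutting at the carboxyl ends, had a log2 fold change of -0.34 (SE 0.16, adjusted p = 0.424). All 4 tested genes of the lysyl oxidase family, which cross-link collagen and elastin, were higher in VO. An unadjusted p-value under 0.05 was found for 1 of them, where 3.89% of all tested genes were higher at that level. Lox was at 5.80, 6.65 and 5.15 FPKM in sham and at 15.4, 6.95 and 9.48 FPKM in VO, and its log2 fold change was 0.78 (SE 0.28, adjusted p = 0.406). Loxl2 was at 9.72, 13.3 and 12.4 FPKM in sham and at 23.4, 13.7 and 14.8 FPKM in VO, and its log2 fold change was 0.52 (adjusted p = 0.414). In Lox and Loxl2 VO 1 was the highest library and VO 2 was above sham 2 by less than 1 FPKM.

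Among 10 collagen receptor genes 6 were tested, with 5 higher and 1 lower in VO and a median log2 fold change of 0.04. The receptor tyrosine kinase gene Ddr1 was lower, at 15.3, 18.5 and 16.7 FPKM in sham and 13.6, 15.1 and 10.9 FPKM in VO, and its log2 fold change was -0.36 (SE 0.15, adjusted p = 0.414). Lair1, an inhibitory receptor of leukocytes, was at 1.101, 0.706 and 1.01 FPKM in sham and at 3.82, 1.07 and 1.53 FPKM in VO, and its log2 fold change was 0.93 (adjusted p = 0.432). VO 1 was the highest library in Lair1 as in the leukocyte markers.

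Of 14 genes for proteins that bind collagen fibrils or networks 13 were tested, 11 of them higher in VO, and the median log2 fold change was 0.35. At an unadjusted p-value under 0.05, 4 were higher and 0 were lower, where 3.89% and 8.08% of all tested genes were. Fn1, which encodes fibronectin, was at 14.8, 22.3 and 24.7 FPKM in sham and at 52.4, 28.7 and 28.8 FPKM in VO. Aspn, a small proteoglycan that competes for fibril sites, was at 26.8, 24.8 and 28.2 FPKM in sham and at 67.6, 30.3 and 40.6 FPKM in VO. Thbs2, a matricellular protein gene, was at 7.85, 9.49 and 9.36 FPKM in sham and at 17.6, 10.3 and 12.5 FPKM in VO. Tnxb, whose product spaces fibrils, was at 16.9, 19.9 and 19.98 FPKM in sham and at 24.2, 23.1 and 21.7 FPKM in VO. In all 4 the VO libraries were above the sham libraries, a pattern seen in 8.25% of all tested genes. Their log2 fold changes were 0.80 (Fn1), 0.72 (Aspn), 0.56 (Thbs2) and 0.28 (Tnxb), with limma adjusted p of 0.407 to 0.41.

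Markers of the cells that could supply collagen RNA were read in the same libraries. Fibroblast markers had 7 of 10 genes higher and a median log2 fold change of 0.07. Their summed FPKM without Gsn, by far the most abundant of them, was 831, 643 and 728 in sham and 828, 692 and 775 in VO, and the groups overlapped. Gsn itself was at 1604, 1203 and 1111 FPKM in sham and 321, 1149 and 1042 FPKM in VO. Among 5 tested myofibroblast markers, 3 were higher and 2 lower, with a median log2 fold change of 0.09. All VO libraries were above all sham libraries in 2 of the 5, Cthrc1 and Postn (log2 fold change 0.68), and below in 1, Acta2. For comparison, 8.25% of all tested genes were above in this way, and the share below was not computed. Postn was at 35.0, 34.0 and 39.4 FPKM in sham and at 106, 41.7 and 43.9 FPKM in VO. VO 1 was thus far above the rest, and the unadjusted limma p was 0.087. Cthrc1 was at 0.928, 0.765 and 0.578 FPKM in sham and 3.87, 1.58 and 2.10 FPKM in VO, and Acta2 at 154, 136 and 201 FPKM in sham and 54.1, 98.7 and 98.9 FPKM in VO. Their log2 fold changes were 1.54 and -0.999, and that of the fibroblast marker Mfap5 was 0.35 (adjusted p = 0.344, 0.373 and 0.373). Mural markers had 5 of 7 genes higher and a median of 0.08, endothelial markers 4 of 7 with a median of 0.04, and epicardial and mesothelial markers 6 of 6 with a median of 0.37. The members with the smallest p-values had log2 fold changes of 0.44 (Rgs5) and 0.50 (Notch3) among mural markers, 0.28 (Cdh5) and -0.25 (Emcn) among endothelial markers, and 0.55 (Krt19) and 0.42 (Upk1b) among mesothelial markers, and of these 6 Notch3, Krt19 and Upk1b had no unadjusted p-value under 0.05. The epicardial and mesothelial markers summed to 33.4, 110.6 and 52.5 FPKM in sham and to 110.9, 40.7 and 71.6 FPKM in VO. The groups overlapped widely, but within each group the libraries stood in the order of their summed collagen FPKM, sham 2 above sham 3 and sham 1, and VO 1 above VO 3 and VO 2. This order was not particular to the mesothelial list. The summed lysyl oxidase genes stood in the same order. The summed atrial cardiomyocyte markers stood in the reverse order, at 25543, 19478 and 20035 FPKM in sham and at 9021, 16817 and 13075 FPKM in VO.

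Other lists differed between the libraries too. Leukocyte markers had all 6 tested genes higher in VO. Their median log2 fold change was 0.82, and they summed to 132 to 164 FPKM in sham, 575 in VO 1, 159 in VO 2 and 202 in VO 3. Cd52 and Cd68 had log2 fold changes of 1.14 and 0.75 at an unadjusted p-value under 0.05 (limma adjusted p = 0.406 and 0.41). At that level 3.89% of all tested genes were higher. All 7 atrial cardiomyocyte markers were lower, with a median of -0.81 and a summed FPKM of 19478 to 25543 in sham and of 9021, 16817 and 13075 in VO 1 to VO 3. Among them Actc1 (-0.86), Tnnt2 (-0.59), Myl4 (-0.90) and Myl7 (-0.81) had an unadjusted p-value under 0.05 for the log2 fold changes given. So did the ventricular marker Myl3 (-0.77). At that level 8.08% of all tested genes were lower, and the limma adjusted p of the atrial genes named ran from 0.373 to 0.41. Myl2, the other ventricular marker tested, was at 60.4, 2.02 and 56.0 FPKM in sham and at 6.95, 1.54 and 20.6 FPKM in VO, so the groups overlapped and sham 2 lay below VO 1 and VO 3. VO 3 alone was high in 5 fat markers, which summed to 380 FPKM there and to at most 1.05 FPKM elsewhere. Plin1, a coat protein gene of fat droplets, was at 21.5 FPKM in VO 3. S100b, a gene of Schwann cells that fat cells also express, was at 9.22 FPKM in VO 3 and at most 1.24 FPKM elsewhere. The Schwann cell markers Sox10 and Gfra3 were at 1.89 and 2.90 FPKM in VO 3, against at most 1.37 and 2.45 FPKM elsewhere. Markers of cartilage, tendon and valve summed to 13.1 to 16.1 FPKM in sham and 10.6 to 14.6 FPKM in VO, with log2 fold changes of 0.76 for Sox9 and -0.51 for Comp, and the cartilage gene Matn1 was at 0 in all libraries. The part of these cells in the levels of the collagen genes was not tested. Without VO 1 the median log2 fold change of the 22 collagen genes was 0.29 with 22 of 22 higher, and without VO 3 it was 0.35 with 21 of 22 higher.

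**Figure D5:**
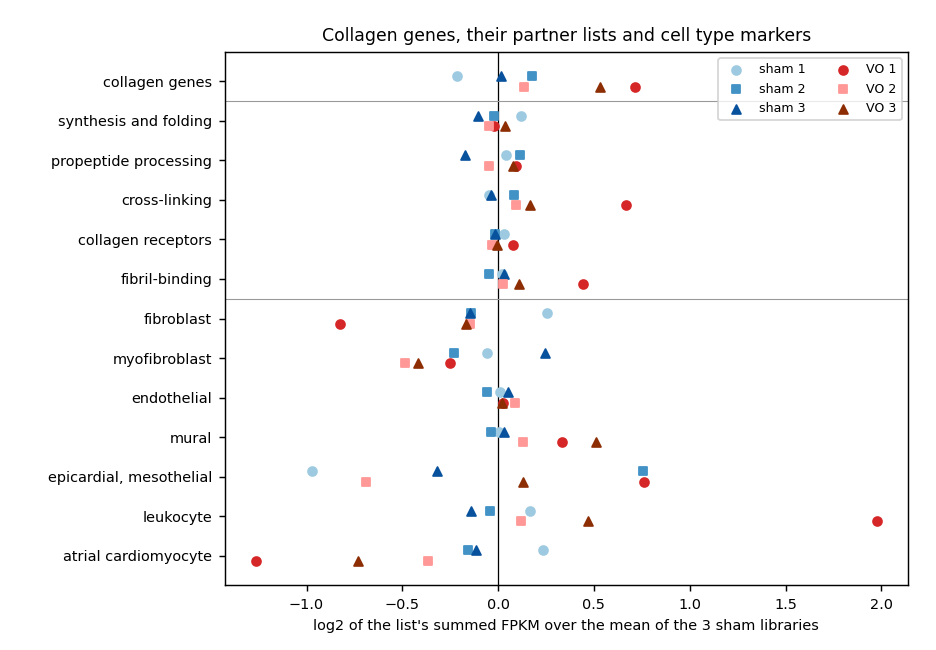
Log2 of the summed FPKM of the 44 collagen genes, of 5 lists of collagen partners and of 7 marker lists over the mean of the 3 sham libraries, with a symbol for each library. VO 1 and VO 3 are the highest libraries for the collagen genes, VO 1 is apart in leukocyte markers at 575 FPKM against 132 to 202 FPKM elsewhere, and the atrial cardiomyocyte markers are lowest in VO 1.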

How the data were processed

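Total RNA of RA myocardium was made into libraries with the NEBNext Ultra kit. Per the labels and the study's methods, the authors aligned reads with HISAT2 2.0.5, counted them with featureCounts 1.5.0-p3 and deposited FPKM computed from gene length. Builds GRCm38 and mm10 stand in the submitters' notes, and the strand setting is not given in the sources used here. Multiplied by gene length, 100% of values were whole fragments within 0.01.

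FPKM, whose median-of-ratios factors were 1.00, were tested with limma 3.58.1 (trend) in R 4.3.3 on log2(FPKM + 0.1), VO against sham, two-sided, with no covariates, at a mean of at least 1 FPKM. Chain ratios were compared by exact permutation. The fit was tested on simulated data. Members and lists were chosen with earlier results of these data known. Every collagen gene of at least 1 FPKM is given, those of at least 0.1 by range, and of other lists the genes with an unadjusted p under 0.05, or the 2 smallest p-values. Further marker genes were named after their values were seen. Some listed marker genes are not reported here, and no printed sum is of a list that holds them. Of the collagen genes, 28 overlap another gene, whose reads may be shared. Alternatives were other pseudocounts, filters and scalings (TPM, quantile), voom on the fragments, a replicate block and each library left out.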

Additional observations from a re-analysis of the deposited data

How the results depend on the processing

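Across 15 fits no collagen gene passed adjustment, and the smallest adjusted p was 0.24 without VO 2. For all genes that count was 1, and 2 with a pseudocount of 1, 3 at a mean of at least 0.1 FPKM, 0 with quantile normalization, 0 with the replicate block and 0 with any library left out. The same-numbered libraries did not deviate together (correlations -0.11, 0.01 and -0.03), so the numbers were not taken as pairs. With the replicate block 1 collagen gene and 932 genes in all had an unadjusted p-value under 0.05, where the fit without it gave 10 and 1511. With single libraries left out these counts ran from 0 to 12 and from 855 to 1998, lowest without sham 1. With no filter 35 of 44 collagen genes were higher in VO. The log2 difference of the Col1a2 to Col1a1 ratio was 0.04, and from -0.0077 to 0.094 with single libraries left out, below 0 without sham 2 and without VO 1. With single libraries left out, the log2 fold change of Col4a4 ran from -0.076 to 0.15, below 0 without sham 1, sham 3 or VO 2, and that of Col8a1 from -0.66 to 0.0074, above 0 without VO 1. The cause was not tested beyond the fewer libraries or other genes that each fit holds. Collagen genes under 1 FPKM stood on at most 254 fragments in a library.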
